A study of Mus musculus with 15 samples.

Results

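The genes described here are Bex1, Bex2, Bex3 and Bex4 of the brain expressed X-linked family, together with Ngfr, which encodes the p75 neurotrophin receptor. They are 5 of the 54418 genes in the deposited count table and were looked up by Ensembl identifier. They were chosen by the Bex1 counts of these data, for their loss in 2 of the 5 groups of libraries, and Ngfr was added as a reported binding partner. The levels of Bex1 in those groups are therefore a description with no test.

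RNA was sequenced from organoids of mouse colon cancer in 15 libraries, 3 in each of 5 groups. All carry the genotype labelled AKP, which the labels do not spell out and which in mouse colon cancer commonly includes mutation of Apc and Trp53, and all were grown as grafts in C57Bl6 recipient mice before being cultured again. Met1, Met2 and Met3 are organoids taken from liver metastases in transplant rounds 1, 2 and 3, and Primary2 and Primary3 are organoids taken from primary tumours in rounds 2 and 3. No treatment and no age of the mice is given in the labels. The labels do not tell whether the 3 libraries of a group come from separate mice, organoid lines or cultures, so the p-values below speak only of the spread among these libraries, which may be technical. No primary group of the first round was among the libraries, so Met1 is compared with primary organoids of later rounds.

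Bex proteins are small and largely unstructured, are encoded on the X chromosome beside the related Tceal genes, and are known mainly from brain. Bex1 and Bex3 have both been reported to bind the intracellular part of the p75 receptor, and Bex3 was first described as a mediator of p75-dependent cell death. The p75 receptor binds neurotrophins and, together with the coreceptor sortilin, their unprocessed precursors, and it signals through adaptors and through cleavage by ADAM17 and gamma-secretase.

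Each library held between 14122203 and 21306543 estimated counts. Levels are given in CPM, counts scaled to the TMM-adjusted size of each library, and a count of 0 in a library allows up to 3 counts, which is 0.141 to 0.212 CPM before scaling. All 8 intestinal epithelial markers checked, such as Epcam and Cdx2, were present, with summed levels of 5660 to 15100 CPM. Lists of 8 markers each were also checked for glia, fibroblasts, stellate cells, hepatocytes, endothelium and leukocytes. Of these, Sox10, Lum, Des, Ahsg, Kdr, Emcn, Adgre1 and Lyz2 had 0 counts in all 15 libraries, while S100b, Col3a1, Pdgfra, Dcn, Alb, Vwf, Stab2, Csf1r and Cd68 exceeded 1 CPM in at least 1 library. The summed leukocyte markers stood at 19.9 to 29.3 CPM in Met1, 6.39 to 11.4 in Primary2, 8.81 to 14.6 in Met2, 8.42 to 19.9 in Primary3 and 16.2 to 24.2 CPM in Met3, from Cd68 and, in the primary libraries, also Csf1r. One gene annotated as ribosomal RNA (CT010467.1) took 2.01% to 7.52% of the counts, and its share differed between groups, so it was tried as a covariate.

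The 4 Bex genes lie within 1 stretch of the X chromosome in GENCODE M21 (GRCm38). Bex2 (ENSMUSG00000042750) occupies chrX:136066564-136068236 on the minus strand and Bex4 (ENSMUSG00000047844) chrX:136138996-136140443 on the plus strand. Bex1 (ENSMUSG00000050071) occupies chrX:136213972-136215513 on the minus strand and Bex3 (ENSMUSG00000046432) chrX:136270253-136271978 on the plus strand. Ngfr (ENSMUSG00000000120) lies on another chromosome, at chr11:95568818-95587735 on the minus strand.

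The 250 bases before the RefSeq start of each Bex gene (GRCm38.p6) fall into 2 closely matching pairs, and each pair joins an abundant gene to one with 15 counts or fewer. They are shown to make that pairing visible. Capitals mark the longest run of letters shared exactly within a pair, Bex1 with Bex4 and Bex3 with Bex2. The windows are chrX:136215514-136215763 (minus strand) for Bex1, chrX:136138746-136138995 (plus) for Bex4, chrX:136270003-136270252 (plus) for Bex3 and chrX:136068237-136068486 (minus) for Bex2.
Bex1: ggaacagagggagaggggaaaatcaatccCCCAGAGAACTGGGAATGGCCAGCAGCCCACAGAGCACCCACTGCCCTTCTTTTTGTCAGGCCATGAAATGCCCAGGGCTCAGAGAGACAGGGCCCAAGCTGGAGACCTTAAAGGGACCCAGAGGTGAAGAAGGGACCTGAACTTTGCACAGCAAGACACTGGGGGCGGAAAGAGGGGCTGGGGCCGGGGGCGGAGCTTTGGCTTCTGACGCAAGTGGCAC
Bex4: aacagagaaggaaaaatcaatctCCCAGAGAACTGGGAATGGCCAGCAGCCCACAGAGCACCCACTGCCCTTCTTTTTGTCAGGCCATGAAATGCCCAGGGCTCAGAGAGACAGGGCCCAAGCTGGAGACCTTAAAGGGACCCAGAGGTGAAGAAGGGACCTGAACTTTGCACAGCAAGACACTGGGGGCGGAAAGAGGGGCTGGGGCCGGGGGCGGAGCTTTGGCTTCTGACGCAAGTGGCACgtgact
Bex3: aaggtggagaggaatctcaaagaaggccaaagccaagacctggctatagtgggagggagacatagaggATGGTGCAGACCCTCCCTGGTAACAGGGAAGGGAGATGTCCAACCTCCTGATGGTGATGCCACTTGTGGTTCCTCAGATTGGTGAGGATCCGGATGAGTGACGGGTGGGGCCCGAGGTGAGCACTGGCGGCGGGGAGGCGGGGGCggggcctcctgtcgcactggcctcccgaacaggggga
Bex2: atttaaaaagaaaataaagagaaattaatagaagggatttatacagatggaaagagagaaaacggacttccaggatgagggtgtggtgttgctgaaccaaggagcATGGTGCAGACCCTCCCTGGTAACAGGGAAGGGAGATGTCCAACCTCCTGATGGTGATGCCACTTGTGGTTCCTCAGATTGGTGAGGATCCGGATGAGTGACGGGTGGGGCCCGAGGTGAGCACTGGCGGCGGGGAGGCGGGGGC
The Bex1 and Bex4 windows were identical at 241 of 244 aligned bases (98.8%), with an unbroken shared run of 221 bases. The Bex3 and Bex2 windows were identical at 179 of 207 aligned bases (86.5%), with a shared run of 145 bases. All other pairs among the 5 genes reached at most 59.4% identity and shared runs of at most 10 bases. In total, 45301 counts were assigned to Bex1 against 1 to Bex4, and 45910 to Bex3 against 15 to Bex2, so members with much the same upstream sequence had very different counts.

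The windows held 4 (Bex1), 5 (Bex4), 7 (Bex2), 9 (Bex3) and 16 (Ngfr) CG dinucleotides, against a median of 6 over all 32851 RefSeq windows of this length. The letters AGATAA and TGATAA, searched on both strands, were in none of the 5 windows and in 9.99% and 7.94% of all windows. No more than the lack of these letters in these windows follows from that.

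Transcripts of the Bex genes also share sequence, which limits how reads can be told apart. Of the distinct 31-base words in the annotated Bex1 transcripts, 371 (30%) also occur on the same strand in another gene, mostly Bex4 (222 words) and Bex2 (147 words). The Tceal7 gene overlaps Bex1 on the opposite strand and holds a further 176 (14.2%) of the Bex1 words. Shared words made up 16.4% of Bex3, 35.5% of Bex2, 59.9% of Bex4 and 1.26% of Ngfr. Counts of Bex2 and Bex4 are therefore uncertain, whereas most of Bex1 and Bex3 is unique. Adding the Bex2 counts to Bex1 left the Bex1 comparisons below on the same side of the threshold. With 15 counts of Bex2 against 45301 of Bex1 the sum could hardly differ, so it does not test how shared reads were assigned.

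**Figure D1:**
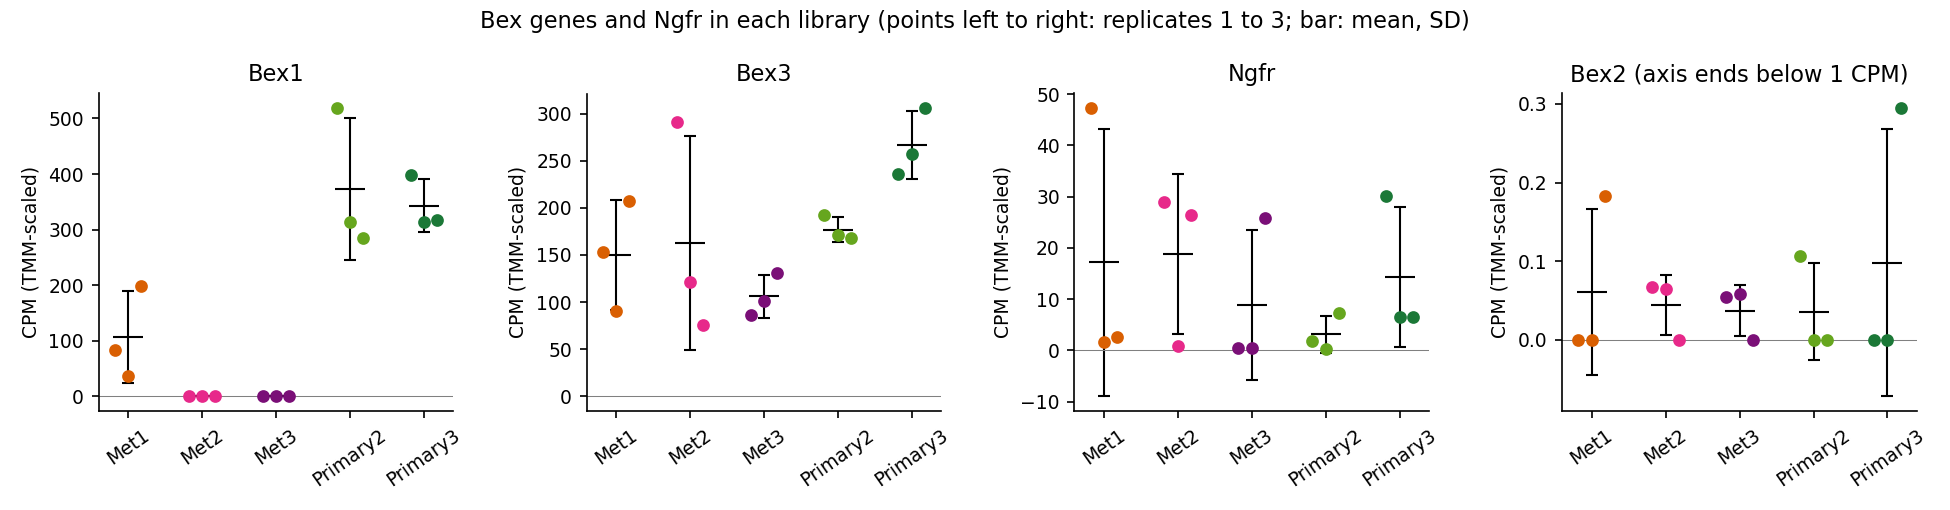
Level of Bex1, Bex3, Ngfr and Bex2 in CPM in each of the 15 libraries, with points for replicates 1 to 3 from left to right and a bar for the mean and SD of the group (n = 3). Bex1 sits at or next to 0 in the 6 Met2 and Met3 libraries, Bex3 is present throughout, Ngfr scatters within groups, and the Bex2 axis ends below 1 CPM.

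Bex1 was abundant in all primary organoids. Its level was 519, 314 and 285 CPM in replicates 1 to 3 of Primary2 and 398, 313 and 318 CPM in those of Primary3, with group means of 372 ± 127 (SD, n = 3) and 343 ± 47.7 CPM (SD, n = 3). The groups overlapped. Primary3 against Primary2 gave a log2 change of -0.12 (95% interval -1.07 to 0.83) with an adjusted p of 0.972 in edgeR's quasi-likelihood test, which is fitted over all 14925 genes that passed a filter on low counts and adjusted by Benjamini-Hochberg. The threshold for a call was 0.05, and this comparison called 0 genes (0% of those tested). At an unadjusted p under 0.05 it had 1063 genes, and DESeq2 called 44 and limma-voom 1.

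In organoids from first-round liver metastases Bex1 was present at a lower and more variable level. Met1 replicates 1 to 3 held 83.0, 37.4 and 199 CPM, a mean of 106 ± 83.2 CPM (SD, n = 3). All of these lay below the lowest primary library, at 285 CPM. Bex1 fell 3.36-fold in Met1 against the mean of Primary2 and Primary3, with a log2 change of -1.75 (SE 0.46, adjusted p = 0.0163, edgeR), in a comparison that called 29.6% of all genes and 14.7% as lower. The call was lost without Met1 replicate 1 (adjusted p = 0.0659), and also when the ribosomal RNA share was a covariate (adjusted p = 0.0546), a share that ran from 2.01% to 3.73% in Met1 and from 3.53% to 7.03% in the primary libraries. Met1 libraries also held the highest summed levels of endothelial markers (2.65 to 46.4 CPM, mainly Vwf, with Kdr and Emcn at 0) and hepatocyte markers (1.33 to 6.01 CPM, mainly Alb, with Ahsg at 0), and leukocyte sums of 19.9 to 29.3 CPM, mainly Cd68, against 6.39 to 19.9 CPM in the primary libraries. Their part in the Bex1 level was not tested.

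In organoids from metastases of rounds 2 and 3 Bex1 counts all but vanished. Met2 replicate 1 held 2 counts (0.134 CPM), and the other 5 libraries of Met2 and Met3 held 0 counts each. The primary libraries of the same rounds held 38591 Bex1 counts. The ratio of the pooled primary to the pooled later metastasis level was 17600, with an interval of 4870 to 145000 that covers counting error only. Within round 2 the ratio was 8060 (2230 to 66500), and within round 3 Bex1 was at least 6250-fold higher in Primary3 than in Met3, taking 3 counts over the group (0.0546 CPM) as the level that 0 counts allow. Relative to Met1, the level was 2430-fold (674 to 20100) lower in Met2 and at least 2030-fold lower in Met3. In bulk RNA, fewer cells with a transcript and less transcript per cell cannot be told apart.

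At a cut of 10 CPM, Bex1 was the only gene with this extreme of difference. Among 7976 genes with at least 10 CPM in each of the 9 Met1, Primary2 and Primary3 libraries, 1 gene, Bex1, had 3 counts or fewer over the 6 Met2 and Met3 libraries together. Bex1 was picked for this loss, so the count is a description, and it depends on the cut. Ggta1 also had 3 counts in those 6 libraries, but its lowest level in the other 9 was 6.56 CPM, below the cut. Levels of S100b and Csf1r, markers of other cell types named here after their values were seen, were also lower in Met2 and Met3 than in the primary libraries. S100b, a glial marker, held 0.521 to 3.08 CPM in the primary libraries and 0 to 0.469 CPM in Met2 and Met3, and the sums of the 8 glial markers were 0.806 to 3.79 and 0.314 to 0.871 CPM, with Sox10 at 0. Csf1r, a receptor gene of macrophages, held 1.67 to 7.90 CPM in the primary libraries and 0 to 0.346 CPM in Met2 and Met3. Adgre1 and Lyz2 were at 0. Cd68, on the same leukocyte list, was not lower there, at 3.55 to 11.8 CPM in the primary libraries and 8.3 to 23.5 CPM in Met2 and Met3. The leukocyte sums were 6.39 to 19.9 CPM and 8.81 to 24.2 CPM. S100b and Csf1r were also low in Met1, which kept Bex1, at no more than 0.106 CPM for S100b and 0.457 CPM for Csf1r. The part of such cells in the Bex1 level was not tested.

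Bex3, the other abundant family member, was kept in every library. Per kilobase of exon, the Bex3 level was 182 and 274 CPM in Primary2 and Primary3, and that of Bex1 was 314 and 289 CPM, so both genes were of like abundance there. In Met3 the Bex3 level per kilobase was 109 CPM, and Bex1 was at 0. The 2 family members thus parted in the later metastases, where 1 was retained and the other was not detected at this depth in 5 of 6 libraries.

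Bex3 stood at 192, 171 and 168 CPM in replicates 1 to 3 of Primary2 and at 236, 257 and 306 CPM in those of Primary3. Met1 held 153, 90.1 and 207 CPM. Met2 held 291, 121 and 75.6 CPM, and Met3 86.4, 101 and 131 CPM. Met2 replicate 1 was thus above every primary library but Primary3 replicate 3, while the other 5 Met2 and Met3 libraries lay below every primary library.

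The group means of Bex3 ran from 266 ± 36.1 CPM in Primary3 through 177 ± 12.8 in Primary2, 163 ± 114 in Met2 and 150 ± 58.7 in Met1 to 106 ± 23 CPM in Met3 (SD, n = 3 each). None of the neighbours in this order differed at an adjusted p under 0.05, including Primary3 and Primary2, whose libraries did not overlap (log2 change 0.59, SE 0.40, adjusted p = 0.795, edgeR). Of the 9 comparisons made, edgeR called Bex3 in 1, and DESeq2 and limma-voom each called it in 2.

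Bex3 fell in Met3 against Primary3. The change was 2.50-fold, a log2 value of -1.32 (SE 0.41, adjusted p = 0.0384, edgeR), and the highest Met3 library (131 CPM) lay below the lowest Primary3 library (236 CPM). The comparison called 19.1% of all genes, and 11% as lower. The call is close to the threshold: over 24 other settings the adjusted p ran from 0.00388 to 0.14, and it was lost in 10 of them. Those were the fit with the ribosomal RNA covariate (0.0924) and the fits without each of the Met3 and Primary3 libraries (0.0539 to 0.14), Met1 replicate 1 (0.051), Primary2 replicate 2 (0.0517) and Primary2 replicate 3 (0.0507). The log2 change stayed between -1.50 and -1.16 in all 24.

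Over both later rounds together Bex3 was lower by 0.72 on the log2 scale (SE 0.28) in Met2 and Met3 against Primary2 and Primary3, which missed the threshold (adjusted p = 0.07, edgeR), in a comparison that called 30.4% of all genes and 16.1% as lower. The outcome depended on Met2 replicate 1, on the test and on the filter. Without that library the log2 change was -1.09 (SE 0.21, adjusted p = 0.00186, edgeR). The 5 remaining later metastasis libraries then did not overlap with the 6 primary ones, as was true of 11.7% of all genes in that direction. With all libraries, DESeq2 (adjusted p = 0.0387) and limma-voom (0.0366) called the fall, as did edgeR without the filter on low counts.

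In the remaining comparisons Bex3 passed no threshold. Met2 against Primary2 gave a log2 change of -0.12 (SE 0.40, adjusted p = 0.878), where 11.8% of all genes were called. Without Met2 replicate 1 that change was -0.85 (adjusted p = 0.0851). The difference between the contrasts of rounds 3 and 2 was -1.20 (SE 0.57, adjusted p = 0.418), in a test by edgeR that called 0% of all genes, 1817 at an unadjusted p under 0.05, and for which DESeq2 called 225 and limma-voom 0. A change of Bex3 that differs between rounds was therefore not shown. Among metastasis groups, Bex3 changed by 0.11 in Met2 against Met1 (adjusted p = 0.873, with 16.3% of genes called), by -0.50 in Met3 against Met1 (0.388, with 23.4% called) and by -0.61 in Met3 against Met2 (0.494, with 0.275% called). Met1 against primary gave -0.53 (SE 0.35, adjusted p = 0.275, edgeR). These comparisons share libraries and are not independent of each other.

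Bex2 and Bex4 were barely detected in any group. Bex2 had 15 counts in the 15 libraries, with a highest level of 0.295 CPM in Primary3 replicate 3 and 0.183 CPM in Met1 replicate 3, and at most 0.107 CPM elsewhere. Its mean was 0.0405 CPM in later metastasis and 0.067 CPM in primary libraries, with p = 0.857 in an exact two-sided permutation test over 924 splits of 6 against 6 libraries. Bex4 had 1 count, in Met1 replicate 3. Neither gene passed the filter on low counts, so 3 of the 5 genes, Bex1, Bex3 and Ngfr, entered the fit. At these counts no difference in Bex2 or Bex4 was detectable, and neither rose to counts near those lost from Bex1.

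Ngfr, the receptor gene, was low and uneven within every group. Met1 held 47.3, 1.54 and 2.56 CPM in replicates 1 to 3, and Primary2 held 1.77, 0.278 and 7.20 CPM. Met2 held 29.0, 0.774 and 26.4 CPM, Primary3 30.1, 6.43 and 6.42 CPM, and Met3 0.377, 0.519 and 25.8 CPM. Each group but Primary2 thus had at least 1 library above 25 CPM and at least 1 several times lower, and all groups overlapped.

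Means of Ngfr ran from 18.7 ± 15.6 CPM in Met2 through 17.1 ± 26.2 in Met1, 14.3 ± 13.7 in Primary3 and 8.91 ± 14.7 in Met3 to 3.09 ± 3.64 CPM in Primary2 (SD, n = 3 each). Of the neighbours in this order, Met2 and Met1 (adjusted p = 0.968, edgeR) and Met3 and Primary3 (0.806) did not pass the threshold, and the others were not compared. In later metastasis against primary the log2 change was 0.96, with a 95% interval of -1.36 to 3.27 (adjusted p = 0.573, edgeR). Ngfr was called in 0 of 9 comparisons by edgeR, DESeq2 or limma-voom, in 0 at an unadjusted p under 0.05, and the adjusted p ran from 0.355 to 0.968. The intervals are wide, so these data do not show that Ngfr was alike in the groups. They show no loss of Ngfr to match that of Bex1: 3 of the 6 libraries with 0 to 2 Bex1 counts held more than 25 CPM of Ngfr.

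Patterns across libraries were compared by Pearson's r of log2 CPM over the 15 libraries among 12460 genes, as a description, since the libraries fall into groups and share their scaling. Bex1 was picked for its loss in Met2 and Met3, and the ranking uses those same libraries. Its r is therefore set largely by that loss and favours genes that were also lower there. The genes most like Bex1 were Ggta1, an alpha-galactosyltransferase (r = 0.979), Renbp, the renin-binding protein (0.974), Fam53c (0.969), Palmd, palmdelphin (0.962), and Dzip1l, a ciliary base protein (0.955). Ggta1 came nearest to the same on and off pattern, with 3 counts in the 6 Met2 and Met3 libraries and at least 6.56 CPM in the other 9. Renbp had 11 counts in those 6 libraries, Palmd 31 and Dzip1l 30. Fam53c differed in kind, with means of 37.6 and 39.7 CPM in the primary groups and still 21.9 and 23.1 CPM in Met2 and Met3. Renbp is on the X chromosome too, and the other 4 are not.

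Bex3 went with different genes. The closest were Itga5, an integrin subunit (r = 0.941), the neighbouring gene Tceal9 (0.932), and Hsd3b7, an enzyme of bile acid synthesis (0.900). For Ngfr no gene exceeded r = 0.771 (Mrpl10), followed by Magi2 (0.769) and Nefh (0.766). Among the members themselves r was 0.597 for Bex1 and Bex3 (0.787 without Met2 replicate 1, and 0.787 over the 9 libraries outside Met2 and Met3), 0.32 for Bex3 and Ngfr, and 0.054 for Bex1 and Ngfr. Bex1 and Bex3 thus varied together over those 9 libraries, in which the Met1 libraries were low in Bex1 and ranked alike for both genes. Within the primary libraries the levels did not go together. The highest Bex1 level (519 CPM, Primary2 replicate 1) came with 192 CPM of Bex3. The highest Bex3 level (306 CPM, Primary3 replicate 3) came with 318 CPM of Bex1. Ngfr varied closely with neither gene.

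**Figure D2:**
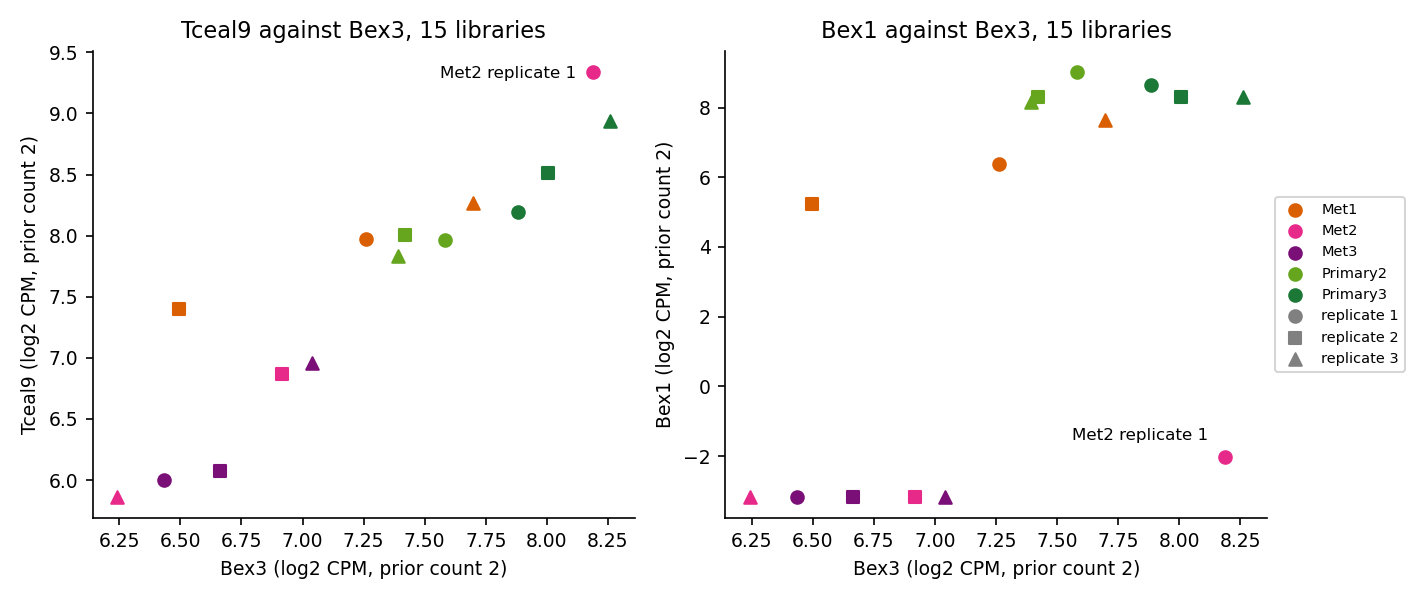
Log2 CPM (prior count of 2) of Tceal9 (left) and Bex1 (right) against Bex3 in the 15 libraries, with colour for the group and shape for the replicate. Tceal9 follows Bex3 in all groups (r = 0.932), with Met2 replicate 1 high for both, whereas the 6 Met2 and Met3 libraries leave the Bex1 relation at the bottom of the right panel.

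Tceal9 lies between Bex1 and Bex3, and like other Tceal genes encodes a small protein resembling an elongation factor. It held 249, 256 and 228 CPM in Primary2, 293, 365 and 491 CPM in Primary3 and 251, 169 and 308 CPM in Met1. Met2 held 647, 117 and 58.2 CPM, and Met3 64.1, 67.1 and 124 CPM, so Met2 replicate 1 was again the exception. In later metastasis against primary the log2 change was -1.0 (SE 0.45, adjusted p = 0.111, edgeR), and -1.83 (SE 0.25, adjusted p = 0.000271) without that library. Tceal9 also fell in Met3 against Primary3 (log2 change -2.17, SE 0.66, adjusted p = 0.0379, edgeR).

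Tceal8, on the other side of Bex1, showed the same library apart. It reached 26.9 CPM in Met2 replicate 1 and at most 2.65 CPM in the other 14. Lmo2, which encodes a transcription cofactor reported to bind Bex2, held 28.4 CPM in that library and at most 0.301 CPM elsewhere, and is named here after its values were seen. Bex1 stood at 2 counts there. Of the 8 fibroblast markers, Dcn (2.28 CPM), Col3a1 (1.68 CPM) and Pdgfra (1.07 CPM) peaked in the same library. The sum there was 5.09 CPM, against at most 0.866 CPM in the libraries of the other groups. The other fibroblast markers did not peak there. Col1a2 and Postn were highest in Met3 replicate 2 (0.519 and 0.173 CPM), Col1a1 and Thy1 in Primary3 replicate 3 (0.118 CPM each), and Lum was at 0. The part of fibroblasts in the levels of Met2 replicate 1 was not tested.

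The neighbourhood of Bex1 was examined as a whole. Within 1 Mb on either side, GENCODE M21 annotates 92 genes, of which 48 had 0 counts in all libraries and 13, including Bex1, passed the filter. In later metastasis against primary, 3 of the other 12 fell and 0 rose (edgeR), against 16.1% of all genes called as lower and 14.3% as higher: Armcx5 (log2 change -0.73, SE 0.13, adjusted p = 0.00162), Gprasp1 (-0.51, SE 0.15, adjusted p = 0.02), and Tmsb15l (-3.14, SE 0.65, adjusted p = 0.00354). Without Met2 replicate 1 the count of fallen genes was 6, with Bex3, Tceal9 and BC065397 added, where 18.1% of all genes were called as lower and 16.1% as higher. Over the whole X chromosome, 110 of 412 tested genes fell with all libraries and 141 of 434 without Met2 replicate 1, a larger share than over all genes. Armcx5 and Gprasp1 are annotated from the same start, and Tmsb15l and Tmsb15b1 overlap on the minus strand, so the counting could split reads between them. Gprasp1 lost its call without the low-count filter (0.064), without Primary2 replicate 3 (0.0546) and without Primary3 replicate 1 (0.0513).

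Loss of Bex1 was not shared by the most abundant neighbour. Morf4l2, a chromatin protein gene, kept group means of 405 to 480 CPM (log2 change -0.19, SE 0.07, adjusted p = 0.0648, edgeR). Tmsb15l, encoding a thymosin, was the neighbour with the largest called fall. It held 0, 0.115 and 0 CPM in Met3, against 2.56, 2.70 and 2.59 CPM in Primary3, but 1.81, 1.35 and 0.514 CPM in Met2, so it was not low in the same set of libraries as Bex1. Tceal7, which overlaps Bex1 on the opposite strand, was nearly undetected but followed Bex1 from group to group. It had 7, 6 and 8 counts in Primary2, 3, 5 and 9 in Primary3 and 1, 2 and 5 in Met1, against 0 in each Met2 library and 0, 0 and 1 in Met3. With 47 counts in all Tceal7 did not pass the filter and was not tested. As the strand setting of the counting is not given, reads from the stretch where Tceal7 and Bex1 overlap cannot be assigned to either gene with certainty.

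**Figure D3:**
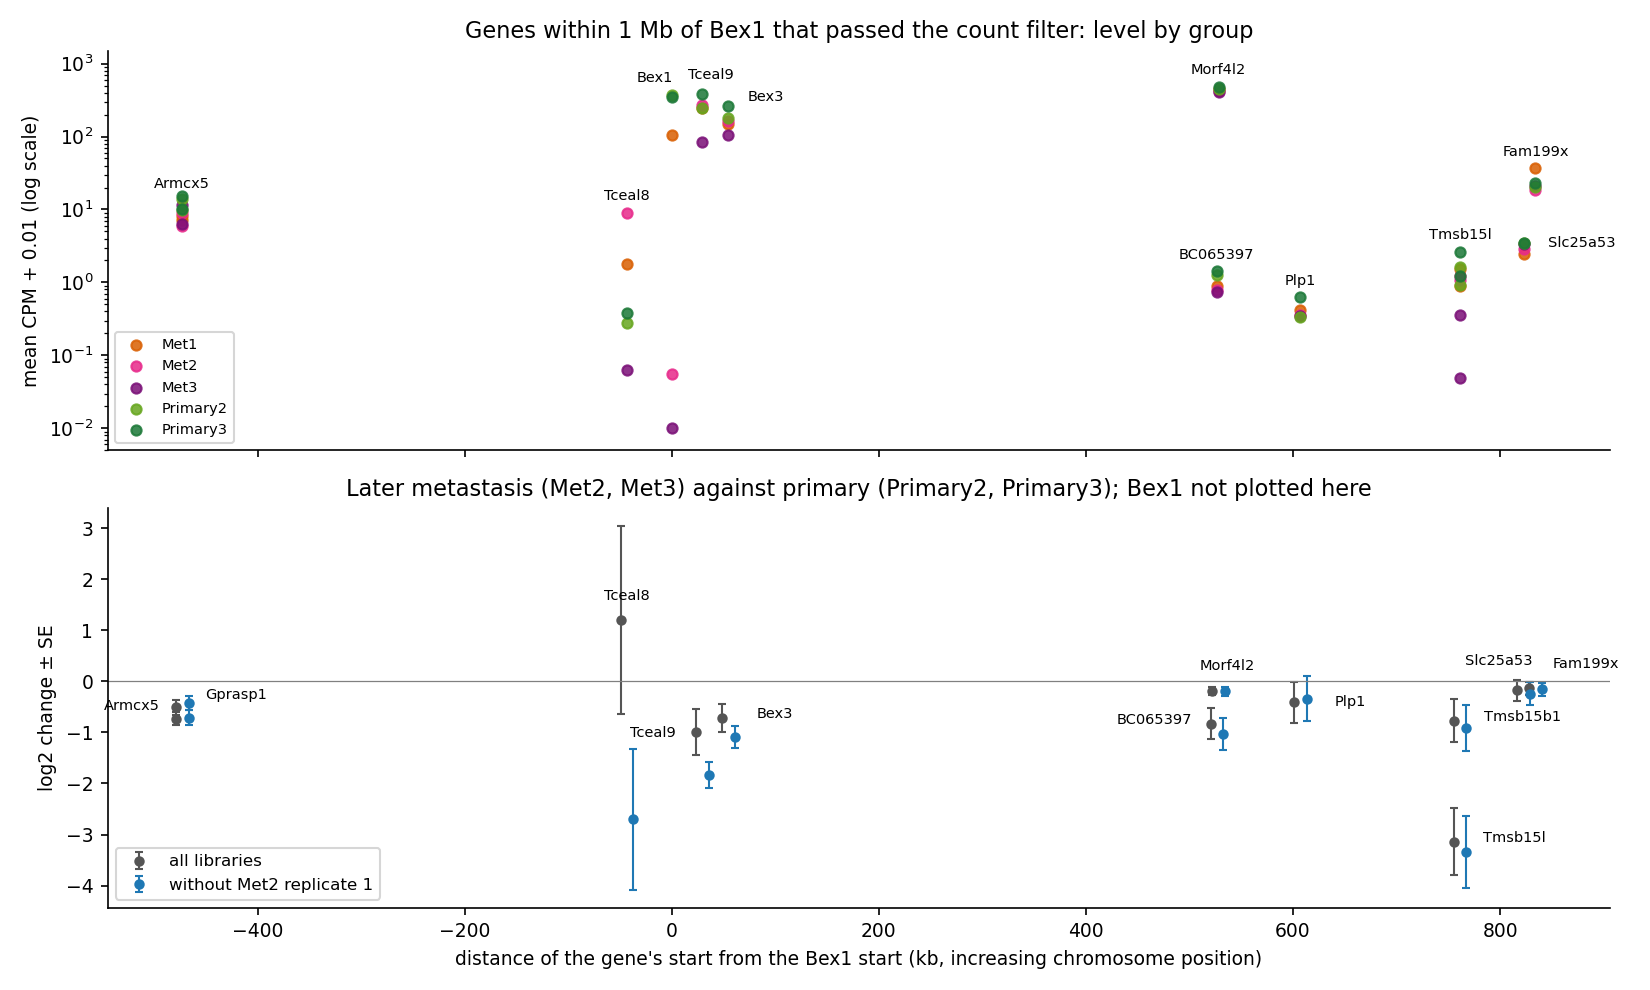
The 13 genes within 1 Mb of Bex1 that passed the filter, by the distance of their start from that of Bex1 in kb. The upper panel gives mean CPM + 0.01 by group on a log axis, and the lower panel the log2 change in later metastasis against primary with its SE, with all libraries and without Met2 replicate 1; Bex1 alone drops to near 0 in both Met2 and Met3.

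The X chromosome as a whole leaned the same way by a small amount. Of its 412 tested genes, which include Bex1, 32 rose and 110 fell in later metastasis against primary, with a median log2 change of -0.19. Over all 14925 genes, 2136 rose (14.3%) and 2401 fell (16.1%), with a median of 0.01. X-linked genes took 2.25% to 2.62% of the counts in Met2 and Met3 and 2.74% to 2.90% in the primary libraries. Xist, the RNA that coats the inactive X, rose in later metastasis, with a log2 change of 0.89 (SE 0.13, adjusted p = 0.000392, edgeR). It stood at 272 to 377 CPM in Met2 and Met3, 290 to 417 CPM in Met1 and 157 to 219 CPM in the primary libraries, so the Met1 libraries, which kept Bex1, were also high. Whether Xist or the X-wide shift bears on Bex1 was not tested.

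Of the wider list of 34 Bex, Tceal and neighbouring X-linked genes, 9 others than Bex1 were tested, and in later metastasis against primary 0 rose and 2 fell, with a median log2 change of -0.51 (all genes: 14.3% higher, 16.1% lower, median 0.01). Without Met2 replicate 1 the count was 0 risen and 4 fallen, where 16.1% of all genes rose and 18.1% fell. Over the whole X chromosome, 110 of 412 tested genes fell with all libraries and 141 of 434 without that library.

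The genes around p75 were taken in the order ligand, receptor, adaptor. Of 4 neurotrophin ligand genes, Ntf3 had 0 counts, and 0 of the 2 tested ones passed the threshold in edgeR. Ntf5, encoding neurotrophin-4, held 2.80 to 4.99 CPM in later metastasis and 4.38 to 9.13 CPM in primary libraries (log2 change -0.57, SE 0.21, adjusted p = 0.0501, edgeR). It passed the threshold in 6 of 24 other settings, over which the adjusted p ran from 0.014 to 0.149. Ntrk2 and Ntrk3, which encode Trk receptors, had 10 and 12 counts and did not pass the filter on low counts.

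Among 14 receptors and coreceptors, 7 were tested, 0 rose and 2 fell, with a median log2 change of -0.59, beside 14.3% of all genes called as higher and 16.1% as lower. Sort1, encoding sortilin, fell 4.63-fold in later metastasis against primary (log2 change -2.21, SE 0.16, adjusted p = 6.52e-06, edgeR). It held 11.4, 9.22 and 8.44 CPM in Met2 and 4.90, 2.94 and 4.40 CPM in Met3, against 22.8 to 38.2 CPM in the primary libraries and 41.9 to 56.0 CPM in Met1. The fall held in all 24 other settings, and the libraries of the sides did not overlap.

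Tnfrsf19, the TROY receptor, which can replace p75 in Nogo receptor complexes and is known from intestinal stem cells, fell as well (log2 change -1.96, SE 0.64, adjusted p = 0.034, edgeR). Its libraries overlapped, with 126, 35.3 and 4.19 CPM in Met2 and 6.20, 3.29 and 32.3 CPM in Met3 against 73.4 to 188 CPM in the primary ones. The call was lost in 9 of 24 other settings, with adjusted p up to 0.083. Met2 replicate 1 was once more the high one, and without it the list counted 3 fallen genes of 7, where 18.1% of all genes fell.

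Among 23 genes of p75 adaptors and downstream signalling, Bex1 not counted, 22 were tested, 4 rose and 1 fell, with a median log2 change of 0.05. The share that rose was thus near the 14.3% of all genes, and the share that fell below the 16.1% of all genes. Ripk2, a kinase that binds the p75 death domain, rose most clearly (log2 change 1.37, SE 0.15, adjusted p = 8.95e-05, edgeR). It held 13.7, 23.5 and 24.6 CPM in Met2 and 34.3, 30.9 and 29.7 CPM in Met3, all above the 8.42 to 11.6 CPM of the primary libraries. Sqstm1, encoding the adaptor p62, rose by 0.95 (adjusted p = 0.0203), Psenen and Ncstn of gamma-secretase by 0.32 (0.0118) and 0.28 (0.0456), and Adam17, the protease that cleaves p75, fell by 0.30 on the log2 scale (0.0182, all edgeR). The Ncstn call was lost in 15 of 24 other settings, and those of Adam17, Sqstm1 and Psenen in 3, 2 and 1. Without Met2 replicate 1 the count was 4 risen and 3 fallen of 22, against 16.1% and 18.1% of all genes.

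Of 11 genes whose products have been reported to bind Bex proteins, 10 were tested, 2 rose and 3 fell, with a median log2 change of -0.06, in a comparison that called 30.4% of all genes. Omp, the olfactory marker protein, rose 7.46-fold (log2 change 2.90, SE 0.26, adjusted p = 2.7e-05, edgeR). Omp held 11.5, 13.7 and 32.7 CPM in Met2, 20.5, 13.6 and 14.4 CPM in Met3 and 2.0 to 2.55 CPM in the primary libraries. Met1 stood at 8.91 to 13.1 CPM, above the primary libraries and with Bex1 still present. The call held in all 24 other settings. Diablo rose by 0.48 (adjusted p = 0.017), and Bcl2, Tsc1 and Calm3 fell by 0.54, 0.34 and 0.18 on the log2 scale with adjusted p of 0.0492, 0.047 and 0.0407 (edgeR); these 3 calls were lost in most other settings, and the list counted 1 fallen gene without Met2 replicate 1.

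**Figure D4:**
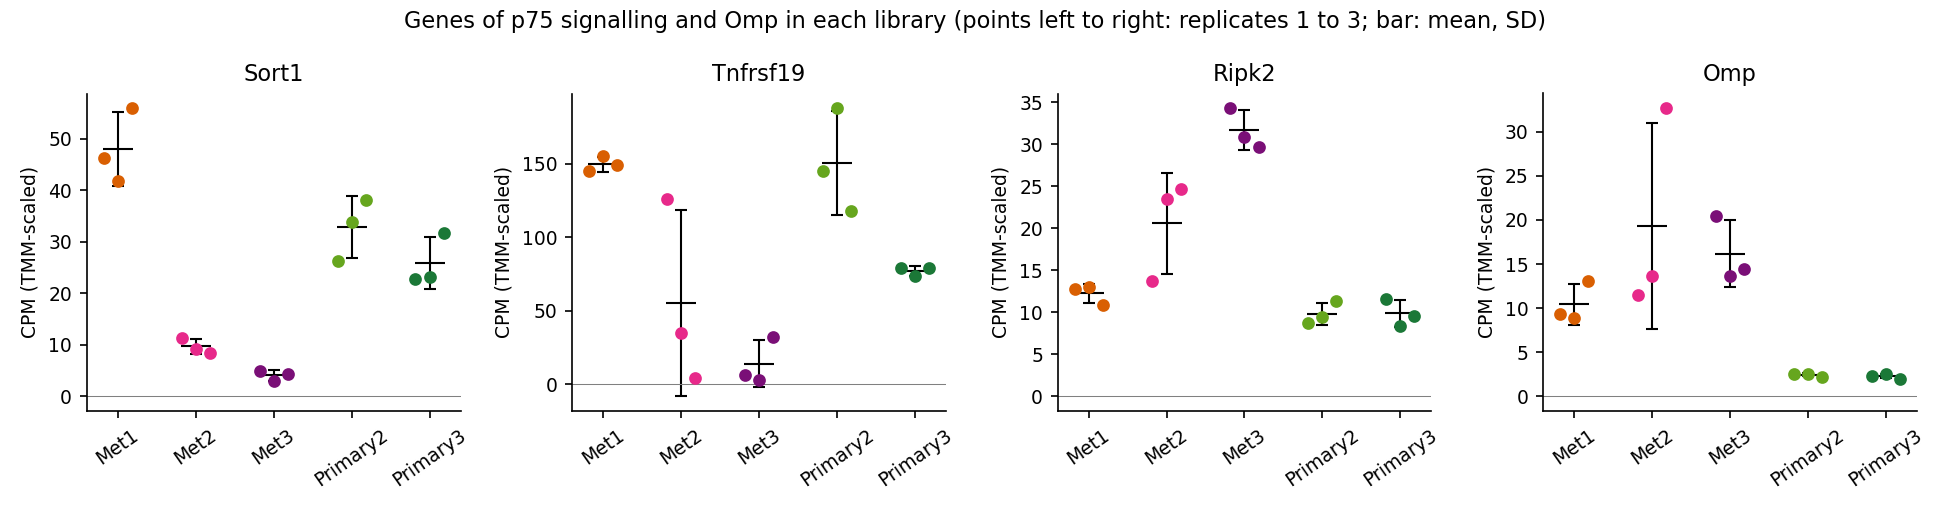
Level of Sort1, Tnfrsf19, Ripk2 and Omp in CPM in each of the 15 libraries, with points for replicates 1 to 3 from left to right and a bar for the mean and SD of the group (n = 3). Sort1 is lowest and Ripk2 highest in Met3, Tnfrsf19 spreads widely in Met2, and Omp is lowest in the 6 primary libraries.

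Other genes of neuronal and neuroendocrine cells were mostly near 0. Of 21 on the list, 4 were tested, 1 rose and 0 fell, beside 14.3% and 16.1% of all genes. That gene was Snap25, a synaptic protein, with 0 counts in the 6 primary libraries and 0 to 0.866 CPM in Met2 and Met3 (adjusted p = 0.042, edgeR), and the call was lost in 14 of the 22 other settings that gave a value. Without Met2 replicate 1, 6 were tested, 0 rose and 2 fell, beside 16.1% and 18.1% of all genes. Bex1 was thus abundant in primary organoids in which most of the other neuronal genes listed were too low to test.

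In Met1 against primary, where Bex1 fell but was still abundant, the same lists were counted by edgeR. Over all genes 14.9% were called as higher and 14.7% as lower. Of 10 tested Bex, Tceal and X-linked neighbours, 0 rose and 3 fell, namely Bex1, Armcx5 (log2 change -0.52, adjusted p = 0.0316) and Gprasp1 (-0.83, adjusted p = 0.00667). Of the 412 tested genes of the X chromosome, 43 rose and 79 fell. Among ligands 1 of 2 rose, which was Bdnf at 0.689 to 1.88 CPM in Met1 against 0 to 0.707 CPM in the primary libraries. Among receptors 1 of 7 rose and 1 fell. Sort1 was the one that rose (log2 change 0.72, SE 0.18, adjusted p = 0.011), and Sorcs2, a relative of sortilin, fell (-2.30, adjusted p = 0.00864). Sort1 thus passed the threshold upward in Met1 and downward in the later metastases, against the same primary libraries.

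Among p75 adaptors 6 of 23 rose in Met1 and 1, Bex1 itself, fell. Sqstm1 rose by 1.58 on the log2 scale (adjusted p = 0.00432) and Ncstn by 0.66 (0.00194). Omp rose as well (log2 change 2.14, SE 0.29, adjusted p = 0.000594), in libraries that held 37.4 to 199 CPM of Bex1. Xist was another gene that rose (log2 change 0.92, SE 0.15, adjusted p = 0.00135). Over all genes 14.9% rose and 14.7% fell.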

How the data were processed

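Poly(A)-selected RNA of 15 organoid libraries had been prepared with a directional kit, per the labels' protocols. Per the submitters' processing notes, which name Salmon 1.3.0 and mm10, the authors deposited estimated counts per gene, and all values are whole numbers. The step from transcripts to genes, the annotation used, any rounding and the strand setting were not given in the sources used here. GENCODE M21 matched 54096 of the 54418 gene IDs, and the other 322 held 0.0342% of the counts.

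Counts were fitted in edgeR 4.0.16 (R 4.3.3) with TMM factors, filterByExpr and group means of all 15 libraries, 9 comparisons and Benjamini-Hochberg adjustment over 14925 genes. The common dispersion was 0.118. The scripts were tested on simulated data. Alternatives were RLE factors, no filter, a CPM filter, DESeq2 1.42.0, limma-voom (limma 3.58.1), a replicate block, the ribosomal RNA covariate, only the groups compared, each library left out, and Bex1 and Bex2 summed.

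The members and lists were chosen with earlier results of these data known. Named genes were the 5 members, the 5 genes most correlated with Bex1 and 3 with each other tested member, tested genes within 1 Mb of Bex1, and up to 6 genes per list, by smallest p, among those called in any comparison. Protein sequences were not used here.

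Replicates of a group differed beyond counting noise in all 15 pairs. The deviations of same-numbered libraries had a median r of 0.007 over 30 pairs, from -0.126 to 0.268, with 8 above 0.1.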

Additional observations from a re-analysis of the deposited data

How the results depend on the processing

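The near absence of Bex1 from Met2 and Met3 is a count of reads given with no test, and no alternative setting was run on it. The calls of Bex3 rest on few libraries. Ngfr had 0 calls and too wide a spread to show likeness of the groups, and Bex2 and Bex4 had too few counts. Results in 2 or more comparisons that share libraries are not independent. The cause was not tested for any of the changes below. All values are adjusted p unless said otherwise.

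For Bex1 in Met1 against primary the ribosomal RNA covariate gave 0.0546, and leaving out 1 library gave 0.00315 to 0.0659. In Primary3 against Primary2 leaving out 1 library gave 0.932 to 1 for Bex1, with a reversed sign without Primary2 replicate 1.

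Bex3 in later metastasis against primary passed with DESeq2 (0.0387), limma-voom (0.0366) and no filter (0.0472), and leaving out 1 library gave 0.00186 to 0.165. Bex3 in Met3 against Primary3 failed with the covariate (0.0924) and ranged from 0.00496 to 0.14 with 1 library left out. Its sign reversed in Met2 against Met1 with limma-voom (0.962), and with 1 library left out the values were 0.18 to 0.884 there, 0.0851 to 0.951 in Met2 against Primary2 and 0.185 to 0.963 in Met3 against Met2, each with a reversal.

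The sign of Ngfr reversed in later metastasis against primary with limma-voom (0.979), in Met1 against primary and in Met3 against Met1 with the covariate (0.409 and 0.584), and in Met2 against Met1 with the replicate block (0.958). With 1 library left out, Ngfr gave 0.364 to 0.721 in later metastasis against primary, 0.302 to 0.604 in Met1 against primary, 0.296 to 0.972 in Met2 against Met1, 0.107 to 0.906 in Met3 against Met1 and 0.124 to 0.983 in Met3 against Primary3, each with a reversal. Tceal8 in later metastasis against primary reversed with limma-voom (0.842) and the replicate block (0.915), and gave 0.149 to 0.848 with 1 library left out. Ddx3x gave 0.593 to 0.995. The exact permutation p of Bex2 was 0.437 to 0.987, reversed without Primary3 replicate 3.

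The replicate block changed no call of Bex1, Bex3 or Ngfr. Among the neighbours and list genes it made BC065397 pass (0.0216) and lost Bcl2 (0.0598), Calm3 (0.0556) and Tsc1 (0.0652).

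The count of called genes in later metastasis against primary moved by under 1.5 times. Other comparisons moved more, besides those with 0 calls given above. Met2 against Primary2 called 1768 genes, 2830 with DESeq2, 330 with the covariate, 215 with only the groups compared and 715 to 2150 with 1 library left out. Met2 against Met1 called 2428, 159 with the covariate, 14 with only the groups compared and 573 to 2527. Met3 against Primary3 called 2850, 1746 with the covariate and 1372 to 3668. Met3 against Met2 called 41, 588 with DESeq2, 4 with limma-voom, 85 with no filter, 0 with the block, the covariate or only the groups compared, and 0 to 203. Met3 against Met1 called 3499 and 1988 to 4449, and Met1 against primary 4420 and 2115 to 5257. The counts per list without Met2 replicate 1 were an alternative chosen after seeing the data.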
